A study of Mus musculus with 4 samples.

Results

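Histone acetylation is written by acetyltransferases, removed by deacetylases and sirtuins, and read by bromodomain proteins. The 44 mouse genes described here were chosen by name and comprise 11 classical deacetylases (Hdac1 to Hdac11), 7 sirtuins (Sirt1 to Sirt7) and 10 acetyltransferases with an established catalytic domain. The others are 3 p160 coactivators (Ncoa1 to Ncoa3), 4 subunits of acetyltransferase complexes, 5 corepressor scaffolds and 4 bromodomain readers. All 44 were found among the 24319 gene names of the deposited tables. RNA was sequenced from whole prostates of 2 wild-type males and from 2 tumours of TRAMP males, in 4 libraries. Every animal was an F1 hybrid of the C57BL/6 and FVB strains. The normal prostates came from mice of 22 weeks. The tumours were labelled 24 weeks (up to 28 weeks in the protocol) and came from males heterozygous for SV40 large T antigen, inherited from a C57BL/6 father. In TRAMP mice the rat probasin promoter drives this viral oncoprotein in prostate epithelium, so a normal gland and a tumour differ in transgene, in age and in cellular makeup at once. Whether 1 mouse or 2 gave the tumours is not in the labels, and a p-value here speaks only of the spread among these 4 libraries.

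Acetyl groups on histone tails neutralise the charge of lysine and provide docking sites for bromodomains, and the mark is generally found at active promoters and enhancers. Deacetylases act mostly inside corepressor complexes: Hdac1 and Hdac2 in the SIN3, NuRD and CoREST complexes, and Hdac3 in the NCoR complex. In prostate epithelium the androgen receptor recruits p160 coactivators with p300 and CBP, and in the absence of agonist it can be bound by NCoR. Large T antigen binds the retinoblastoma proteins, which themselves recruit deacetylases to cell cycle genes, and it also binds p300 and CBP.

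The tables give FPKM, a transcript level corrected for length and sequencing depth, and values here were divided by a factor that puts the median gene of each library on a common level. Libraries held between 986717 and 1580686 implied fragments. Before that division tumour values lay 0.94 higher on the log2 scale for the median gene, and changes are therefore given relative to the median gene unless the deposited scale is named. The labelled tissues differed in marker genes. The 5 luminal markers, among them keratins Krt8 and Krt18, summed to 1703 and 2036 scaled FPKM in the normal prostates and to 316 and 1095 in tumours 1 and 2, with Cdh1 listed at 0 in tumour 1. The 6 proliferation markers, all called higher, summed to 36.9 and 39.9 against 1184 and 574. The 6 neuroendocrine markers, of which 5 were called higher, summed to 5.94 and 3.62 against 349 and 708. Smooth muscle markers summed to 377 and 326 against 1.47 and 63.3, basal markers to 72.8 and 71.1 against 0 and 24.6, and macrophage markers to 5.80 and 4.49 against 109 and 249. Called lower were 0 of the 5 luminal, 1 of 5 smooth muscle and 1 of 3 tested basal markers, and 2 of 4 macrophage markers were called higher. Most of the falls in these sums thus held genes that did not pass. Fibroblast markers spanned 99.0 to 123 in normal prostates and 50.4 to 376 in tumours, and endothelial and lymphocyte markers did not exceed 19.8 in any library. In bulk tissue, fewer cells of a type and less RNA per cell cannot be told apart. The part of these differences in any result that follows was not tested.

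Of the 44 genes, 3 rose in the tumours (Hdac2, Hat1 and Rcor2), 3 fell (Kat2b, Sin3b and Brd2) and 38 did not pass an adjusted p of 0.05 (limma, Benjamini-Hochberg over 13162 genes). Each direction held 6.82% of the group, where 9.85% of all genes tested were called higher and 8.27% lower, so the 44 were not called more often than genes at large. At an unadjusted p under 0.05, limma placed 10 higher (22.7%, against 21.5% of all genes tested) and 4 lower (9.09%, against 18.3%). Both tumours lay above both normal prostates for 23 genes (52.3%, against 37.7% of all genes tested) and below them for 7 (15.9%, against 33.3%). Those 7 were Hdac3, Hdac9, Hdac10, Sirt7, Kat2b, Sin3b and Brd2. The median log2 fold change was 0.46, against 0.07 for all genes. On the deposited scale it was 1.32 against 0.86, with 18 genes called higher and Kat2b alone called lower, where the same scale called 28.0% of all genes higher and 3.24% lower. Those 18 were Hdac1, Hdac2, Hdac4, Hdac5, Sirt3, Sirt6, Kat2a, Hat1, Kat7, Crebbp, Ncoa1, Brd1, Trrap, Ncor1, Sin3a, Rcor1, Rcor2 and Brd3. All 44 passed the filter on low values, Hdac4 through its tumour values alone, and 40 reached an FPKM of 1 in every library. Hdac8, Crebbp and Rcor2 reached it in only 1 normal prostate each and passed with the help of their tumour values. The call for Rcor2 thus follows in part from the filter.

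The calls depended on single libraries and on the scaling. Kat2b was called lower in 9 of 12 fits, the reference fit included, Sin3b in 6, Hdac2 and Hat1 in 5, Rcor2 in 4 and Brd2 in 3. Limma with voom weights on implied fragments called Hat1 higher, Kat2b, Sin3b and Brd2 lower, and no other of the 44. Without normal 1, limma called 0 of the 44 genes and 0 of all genes, while 2 of the 44 were higher and 3 lower at an unadjusted p under 0.05, and 1204 and 958 of all genes. Without normal 2 it also called 0, with 3 of the 44 higher and 3 lower at an unadjusted p under 0.05, and 1248 and 928 of all genes. Without tumour 1 it called 0 of the 44, with 6 higher and 5 lower at an unadjusted p under 0.05, while 1026 of all genes were called higher and 495 lower. Without tumour 2, with 1852 of all genes called higher and 1923 lower, Hdac2, Hdac5 and Brd3 were called higher, and Kat2b, Sin3b and Sirt7 lower. Adjusted p over the 12 fits ran from 0.0228 to 0.294 for Kat2b, 0.0282 to 0.294 for Sin3b, 0.0188 to 0.318 for Hdac2, 0.0243 to 0.294 for Hat1, 0.0234 to 0.335 for Rcor2 and 0.0306 to 0.2999 for Brd2. Each of these 6 genes kept its direction in all 12 fits.

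**Figure D1:**
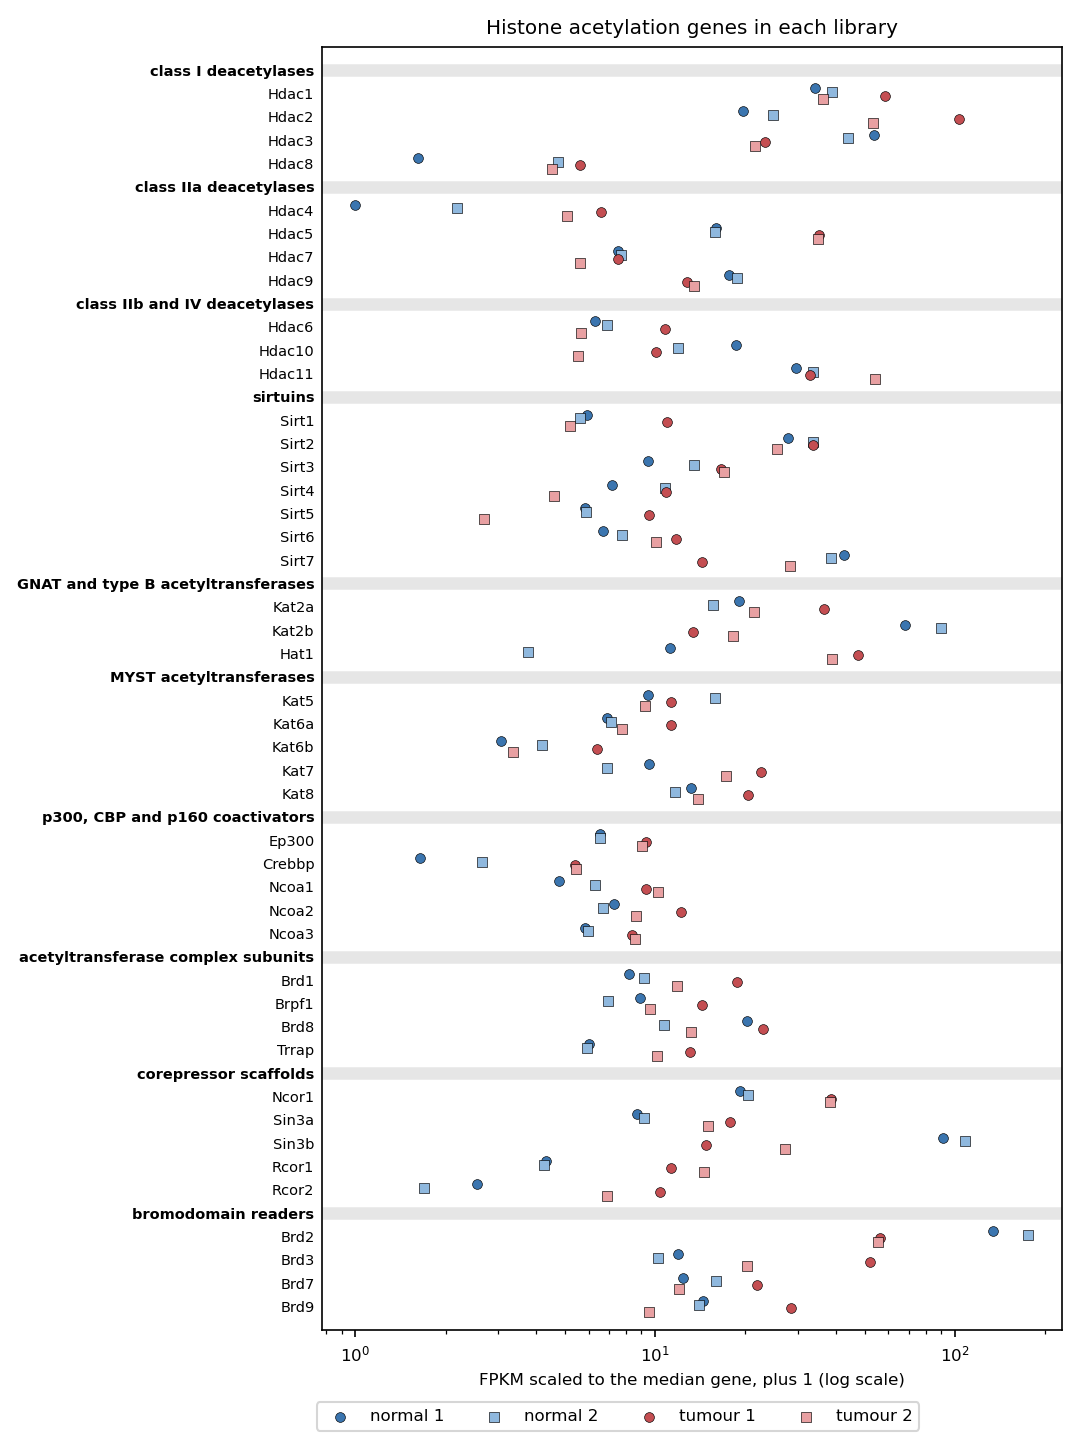
Scaled FPKM plus 1 on a log axis for the 44 genes, grouped by role, with a point for each library. Circles mark library 1 and squares library 2 of a group, in blue for normal and red for tumour. The numbers only name libraries, and shared symbols pair nothing. By scaled FPKM, Brd2, Sin3b and Kat2b were the 3 highest of the 44 in both normal prostates. Both tumours lie to their left, while Hdac2 and Hat1 have both tumours to the right.

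Among class I deacetylases, the catalytic subunits of nuclear corepressors, Hdac2 rose while its partner Hdac1 did not pass. Hdac2 (chromosome 10, 36974544 to 37001888, GRCm38) lay at 18.6 and 23.8 scaled FPKM in the normal prostates and at 102 and 52.2 in the tumours. Both tumours lay above both normal prostates, tumour 1 further than tumour 2. The change was 1.75 on the log2 scale (adjusted p = 0.0496, SE 0.41), a 3.36-fold rise. Hdac1, which sits beside Hdac2 in the same complexes, lay at 33.2 and 37.9 against 57.4 and 35.3, so its groups overlapped (log2 change 0.34, adjusted p = 0.499, SE 0.34). Both were called higher on the deposited scale (2.66 for Hdac2 and 1.26 for Hdac1, adjusted p = 0.0188 and 0.0415). Hdac3, the NCoR enzyme, lay at 52.7 and 43.0 against 22.2 and 20.5, and its groups did not overlap. Its change was -1.12 on the log2 scale (adjusted p = 0.0555, SE 0.28), and -0.21 on the deposited scale. Hdac8, which acts outside these complexes and deacetylates cohesin, lay at 0.612 and 3.73 against 4.61 and 3.51, and its lowest value rested on 1 implied fragment.

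Hdac3 was the most abundant class I enzyme in the normal prostates and Hdac2 in the tumours. Hdac2 held 17.7% and 21.9% of the summed class I FPKM in the normal prostates and held 54.8% and 46.8% in the tumours. Hdac3 held 50.1% and 39.6% against 11.9% and 18.4%. Hdac1 stayed between 30.8% and 35.0% in all 4 libraries. Such shares are ratios within a library and do not depend on the scaling between libraries.

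**Figure D2:**
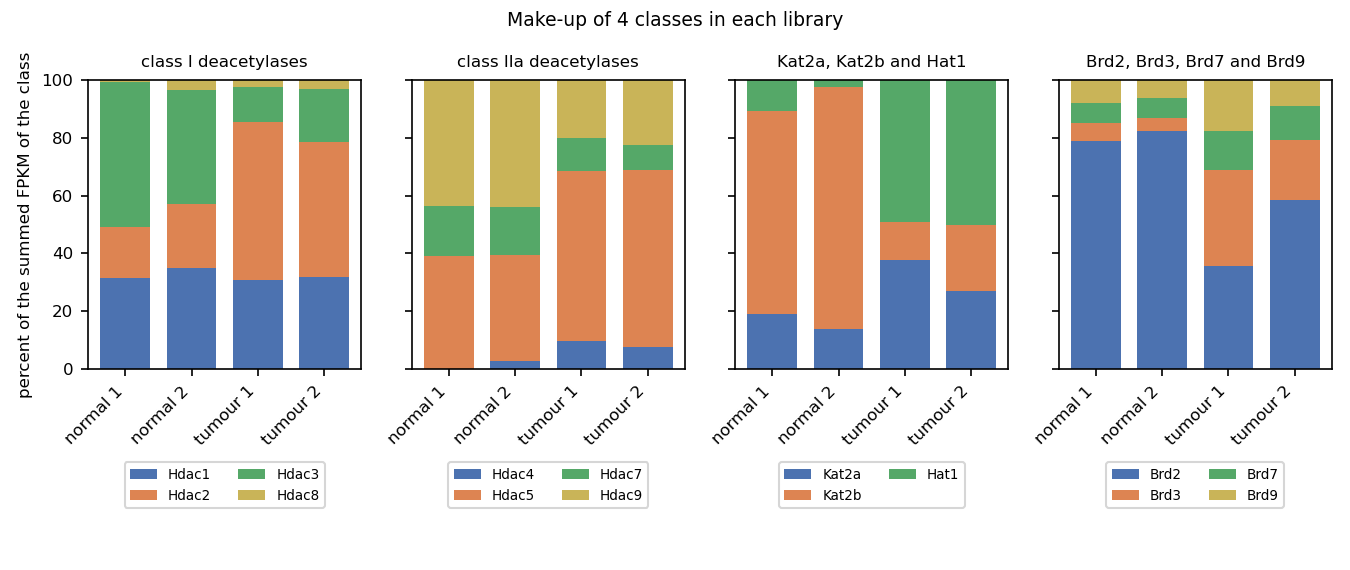
Share of each gene in the summed FPKM of its class, in percent, with a stacked bar for each library from 0 to 100. In class I the Hdac2 share is 17.7% and 21.9% in the normal prostates, against 54.8% and 46.8% in the tumours, and in the GNAT and type B group the Kat2b share is 70.4% and 83.6% against 13.2% and 22.8%.

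Class IIa deacetylases shuttle between nucleus and cytoplasm, bind MEF2 factors and have little catalytic activity of their own. In limma 0 of the 4 passed, and 2 had an unadjusted p under 0.05, both higher. Hdac4 had the largest difference of the class, listed at 0 in normal 1, at 1.18 in normal 2, and at 5.57 and 4.09 in tumours 1 and 2. Its change was 1.97 on the log2 scale (adjusted p = 0.0621, SE 0.53), and the normal values rested on 0 and 7.0 implied fragments. Hdac5 was nearly equal within each group, at 14.9 and 14.8 against 34.2 and 33.9. Its change of 1.15 on the log2 scale (adjusted p = 0.0531, SE 0.28) missed the threshold and passed it in 5 other fits, the deposited scale among them. Hdac9 lay at 16.6 and 17.7 against 11.7 and 12.5, and Hdac7, the form known best from endothelium and thymocytes, at 6.49 and 6.67 against 6.495 and 4.61. On the deposited scale the small differences of Hdac7 and Hdac9 turned positive (0.58 and 0.41). Hdac5 held 39.2% and 36.6% of the class in the normal prostates, against 59.0% and 61.5% in the tumours, and Hdac9 held 43.7% and 43.9% against 20.2% and 22.7%.

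The 3 deacetylases of classes IIb and IV did not pass either, and 0 had an unadjusted p under 0.05 in limma. Hdac10, a polyamine deacetylase, lay at 17.6 and 10.9 against 9.06 and 4.52, with a change of -1.0 on the log2 scale (adjusted p = 0.191, SE 0.49) that was -0.16 on the deposited scale. Hdac6, the cytoplasmic tubulin deacetylase, lay at 5.30 and 5.92 against 9.78 and 4.65. Hdac11, which removes fatty acyl groups from lysine, lay at 28.4 and 32.7 against 31.9 and 53.2 and was the second most abundant of the 44 genes in tumour 2. The groups of Hdac6 and Hdac11 overlapped.

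No sirtuin passed the test in limma, and none had an unadjusted p under 0.05. These enzymes use NAD as a cosubstrate, and several act outside the nucleus. Sirt7, a nucleolar deacetylase, had the largest difference on the scaled values, at 41.5 and 37.5 against 13.4 and 27.1 (log2 change -1.01, adjusted p = 0.142, SE 0.42). Its difference was the smallest of the 7 on the deposited scale, at -0.10 (adjusted p = 0.884). It shares exon sequence with Mafg on the same strand, and without tumour 2 it was called lower (-1.49, adjusted p = 0.0401). Sirt3, the main mitochondrial deacetylase, lay at 8.44 and 12.5 against 15.6 and 16.0. Sirt6, a chromatin-bound deacetylase, lay at 5.72 and 6.78 against 10.7 and 9.09. These 2 genes had both tumours above both normal prostates, and were called higher on the deposited scale (1.45 and 1.43, adjusted p = 0.0375 and 0.0413).

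In each of the other 4 sirtuins tumour 1 lay above and tumour 2 below both normal prostates. Sirt1, the nuclear enzyme that deacetylates p53, lay at 4.93 and 4.59 against 9.96 and 4.21. Mitochondrial Sirt4 lay at 6.20 and 9.80 against 9.89 and 3.60, and Sirt5, which removes succinyl and malonyl groups, at 4.82 and 4.89 against 8.55 and 1.68. The last of these values rested on 4.0 implied fragments. Sirt2, mostly cytosolic, lay between 24.6 and 32.7 in all 4 libraries. On the deposited scale the differences of Sirt2, Sirt4 and Sirt5 were positive (0.86, 0.50 and 0.53).

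The GNAT and type B acetyltransferases held a gene called in each direction. Kat2b (PCAF), like its paralogue Kat2a (GCN5), is the catalytic subunit of the SAGA and ATAC coactivators. Kat2b (chromosome 17, 53566971 to 53672721) lay at 66.9 and 88.9 in the normal prostates, against 12.4 and 17.2 in the tumours, so both tumours were well below. The change was -2.32 on the log2 scale (adjusted p = 0.0228, SE 0.33), a level 5.0-fold lower. On the deposited scale it was -1.41 (adjusted p = 0.0391), and Kat2b was the only one of the 44 called lower there. Kat2a lay at 18.01 and 14.6 against 35.6 and 20.4 and did not pass (0.70, adjusted p = 0.239, SE 0.39), but was called higher on the deposited scale (1.597, adjusted p = 0.0397).

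Hat1 acetylates newly made histone H4 before it is placed on DNA. The gene (chromosome 2, 71389260 to 71441622) lay at 10.2 and 2.75 in the normal prostates, against 46.3 and 37.9 in the tumours. The tumours were close to each other and far above both normal prostates, which differed from each other and rested on 14.7 and 6.0 implied fragments. The change was 2.73 on the log2 scale (adjusted p = 0.0434, SE 0.60), a 6.62-fold rise and the largest of the 44 in the reference fit. That rank depended on the setting. Hdac4 had the larger change with a pseudocount of 0.1 (3.77 against 2.96 for Hat1) and with voom (3.56 against 3.02). The 6 proliferation markers rose in the same libraries, and their part in this result was not tested. Hat1 held 10.7% and 2.59% of the summed FPKM of Kat2a, Kat2b and Hat1 in the normal prostates, against 49.1% and 50.1% in the tumours.

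Promoters of the genes with the most different tumour levels can be read beside these values. RefSeq promoter windows of 300 bases on GRCm38.p6, mostly upstream of the start, were matched for 37 of the 44 genes, with 52 windows in all. Hdac1, Hdac3, Hdac10, Brd8, Kat6a, Ncoa2 and Ncoa3 are named only. The median window had 62.2% G and C and 22.5 CpG dinucleotides, against 52.7% and 7 over all 32851 windows. Hat1 and Rcor2 are shown as the 2 rises with the largest fold change and Kat2b as the fall with the largest. They are chr2:71389010-71389309, chr19:7267144-7267443 and chr17:53566721-53567020, all on the plus strand, and capitals mark matches to 3 motifs on either strand. The E-box searched was CACGTG, the next motif was the pentamer known as the CCAAT box, and the letters of the ETS site were CCGGAAGT.
Hat1: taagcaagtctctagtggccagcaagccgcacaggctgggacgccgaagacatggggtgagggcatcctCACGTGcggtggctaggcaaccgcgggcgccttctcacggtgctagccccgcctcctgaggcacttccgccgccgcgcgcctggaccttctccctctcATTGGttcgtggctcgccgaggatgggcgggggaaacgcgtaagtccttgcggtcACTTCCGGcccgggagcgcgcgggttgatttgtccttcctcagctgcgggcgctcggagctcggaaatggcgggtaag
Rcor2: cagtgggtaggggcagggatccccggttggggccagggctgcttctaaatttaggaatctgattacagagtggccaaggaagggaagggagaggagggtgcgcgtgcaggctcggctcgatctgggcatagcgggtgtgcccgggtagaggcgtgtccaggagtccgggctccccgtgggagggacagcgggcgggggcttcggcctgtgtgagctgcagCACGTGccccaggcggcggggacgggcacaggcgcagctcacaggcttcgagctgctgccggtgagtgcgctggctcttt
Kat2b: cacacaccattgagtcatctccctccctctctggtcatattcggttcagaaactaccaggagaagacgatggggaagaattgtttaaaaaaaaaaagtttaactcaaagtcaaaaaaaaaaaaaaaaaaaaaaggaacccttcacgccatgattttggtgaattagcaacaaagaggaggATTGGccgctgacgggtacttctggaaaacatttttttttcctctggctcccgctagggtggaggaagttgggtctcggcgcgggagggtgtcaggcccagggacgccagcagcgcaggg
The Hat1 window holds 32 CpG and a match to each of the 3 motifs. The Rcor2 window lies 2370 bases from the deposited start of the gene and holds 21 CpG and an E-box. The Kat2b window, 1 of 2 listed for the gene, holds 11 CpG, 47.0% G and C, and a CCAAT box.

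The motifs were searched on both strands in all windows and none of them contains another. An E-box was present in 9.62% of the 52 windows and 7.15% of all windows, and lay in the promoters of Hat1, Rcor2, Hdac5, Kat5 and Sirt1. A CCAAT box was present in 32.7% against 37.4%. An ETS site was present in 11.5% against 3.89%, in Hat1, Kat5, Kat7, Kat8, Sirt3 and Sirt6. An E2F site (TTTCCCGC, TTTGGCGC, TTTCGCGC or TTTGCCGC) was present in 5.77% against 2.26%, in Kat2a, Brd7 and Sirt4. The letters of the E-box, the ETS site and the E2F sites all hold a CG, and those of the CCAAT box do not. The 52 windows held more CpG than all windows, with medians of 22.5 and 7. The part of this in the shares was not tested. The motifs were chosen after the values were seen. A match is only a run of letters and no evidence of binding.

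None of the 5 MYST acetyltransferases passed in limma, and 1, Kat7, had an unadjusted p under 0.05. Kat7 (HBO1), which acetylates histones at replication origins, had the largest difference, at 8.56 and 5.91 against 21.6 and 16.2. Its change was 1.28 on the log2 scale (adjusted p = 0.0762, SE 0.38). Kat6a (MOZ) lay at 5.90 and 6.15 against 10.3 and 6.73, and Kat8 (MOF), the main enzyme for lysine 16 of histone H4, at 12.2 and 10.7 against 19.4 and 12.9. In these 3 genes both tumours lay above both normal prostates. Kat6b (MORF) lay at 2.06 and 3.20 against 5.37 and 2.36, and Kat5 (TIP60), the catalytic subunit of NuA4, at 8.45 and 14.9 against 10.3 and 8.27. Kat5 and Kat6b overlapped between groups, and the Kat5 difference of -0.26 became 0.60 on the deposited scale. Kat8 shares exon sequence with Prss8, a gene on the opposite strand.

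The coactivators p300, CBP and the p160 proteins had both tumours above both normal prostates in 5 of 5 genes, an order seen in 37.7% of all genes tested and 52.3% of the 44, and none of the 5 passed in limma, with 1, Crebbp, at an unadjusted p under 0.05. Crebbp (CBP) had the largest difference, at 0.637 and 1.64 against 4.41 and 4.43. Its change was 1.38 on the log2 scale (adjusted p = 0.0864, SE 0.44), and the normal values rested on 5.0 and 18.9 implied fragments. Ep300, its paralogue, lay at 5.56 and 5.53 against 8.32 and 8.05 (0.49, adjusted p = 0.365, SE 0.37). The p160 genes encode androgen receptor coactivators. Ncoa1 lay at 3.79 and 5.31 against 8.29 and 9.24, Ncoa2 at 6.26 and 5.71 against 11.2 and 7.66, and Ncoa3 at 4.83 and 4.99 against 7.36 and 7.56.

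Subunits of acetyltransferase complexes had higher means in the tumours, and none of the 4 passed in limma, with 0 at an unadjusted p under 0.05. Trrap, the large scaffold of SAGA and NuA4, had the largest difference, at 5.01 and 4.93 against 12.1 and 9.13 (log2 change 0.95, adjusted p = 0.136, SE 0.38). Brd1 and Brpf1 hold MYST enzymes in their complexes. Brd1 lay at 7.17 and 8.18 against 17.7 and 10.8, and Brpf1 at 7.93 and 5.95 against 13.3 and 8.63. Brd8, a NuA4 bromodomain subunit, lay at 19.2 and 9.71 against 21.9 and 12.2 and overlapped.

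The corepressor scaffolds, which bring deacetylases to DNA-bound factors, moved in both directions. Sin3b (chromosome 8, 72723270 to 72758203) lay at 90.5 and 107 in the normal prostates, against 13.8 and 26.02 in the tumours. Both tumours lay below both normal prostates, tumour 1 further. The change was -2.32 on the log2 scale (adjusted p = 0.0282, SE 0.39), a level 4.98-fold lower, and -1.40 on the deposited scale (adjusted p = 0.0642). Its paralogue Sin3a lay at 7.72 and 8.18 against 16.7 and 14.0 and did not pass (0.87, adjusted p = 0.129, SE 0.34), but was called higher on the deposited scale (1.73, adjusted p = 0.0264), where Sin3b did not pass.

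Rcor2 and Rcor1 encode CoREST proteins, which join the histone demethylase Lsd1 to Hdac1 and Hdac2; Rcor2 is known from neural and stem cells. Rcor2 (chromosome 19, 7269764 to 7275225) lay at 1.54 and 0.696 in the normal prostates, against 9.35 and 5.90 in the tumours. The tumours did not overlap the normal prostates, whose values rested on 3.0 and 1.99 implied fragments. The change was 2.03 on the log2 scale (adjusted p = 0.0477, SE 0.47), a 4.07-fold rise. Rcor2 reached an FPKM of 1 in only 1 normal prostate, and without the filter on low values its adjusted p in limma was 0.0864. The 6 neuroendocrine markers, 5 of them called higher, summed to 5.94 and 3.62 in the normal prostates and to 349 and 708 in tumours 1 and 2. Tumour 2 was thus the higher for this sum and tumour 1 for Rcor2. The part of these markers in this result was not tested. Rcor1, the widely expressed form, lay at 3.33 and 3.25 against 10.3 and 13.5, close to the threshold (1.58, adjusted p = 0.0528, SE 0.39). Ncor1, the scaffold that carries Hdac3, lay at 18.1 and 19.4 against 37.6 and 37.4 (0.96, adjusted p = 0.0708, SE 0.28). Hdac3 and Ncor1 thus had differences of opposite sign on the scaled values.

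Among the bromodomain readers, the BET protein Brd2 fell and its relative Brd3 did not pass. BET proteins bind acetylated histones and recruit transcription elongation factors. Brd2 (chromosome 17, 34112019 to 34122607) lay at 133 and 175 in the normal prostates, against 55.4 and 54.4 in the tumours, and both tumours were below. The change was -1.46 on the log2 scale (adjusted p = 0.0321, SE 0.26), a level 2.74-fold lower. On the deposited scale it was -0.52 (adjusted p = 0.155), where it did not pass. Brd2 shares exon sequence with H2-DMa on the opposite strand. Brd3 lay at 10.9 and 9.23 against 51.2 and 19.3, with a change of 1.56 on the log2 scale (adjusted p = 0.0989, SE 0.53). Brd3 was called higher on the deposited scale (2.44, adjusted p = 0.0317). Brd7 and Brd9, subunits of different SWI/SNF remodelling complexes, overlapped between groups, at 11.4 and 14.97 against 20.9 and 11.0 and at 13.4 and 13.0 against 27.3 and 8.52.

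**Figure D3:**
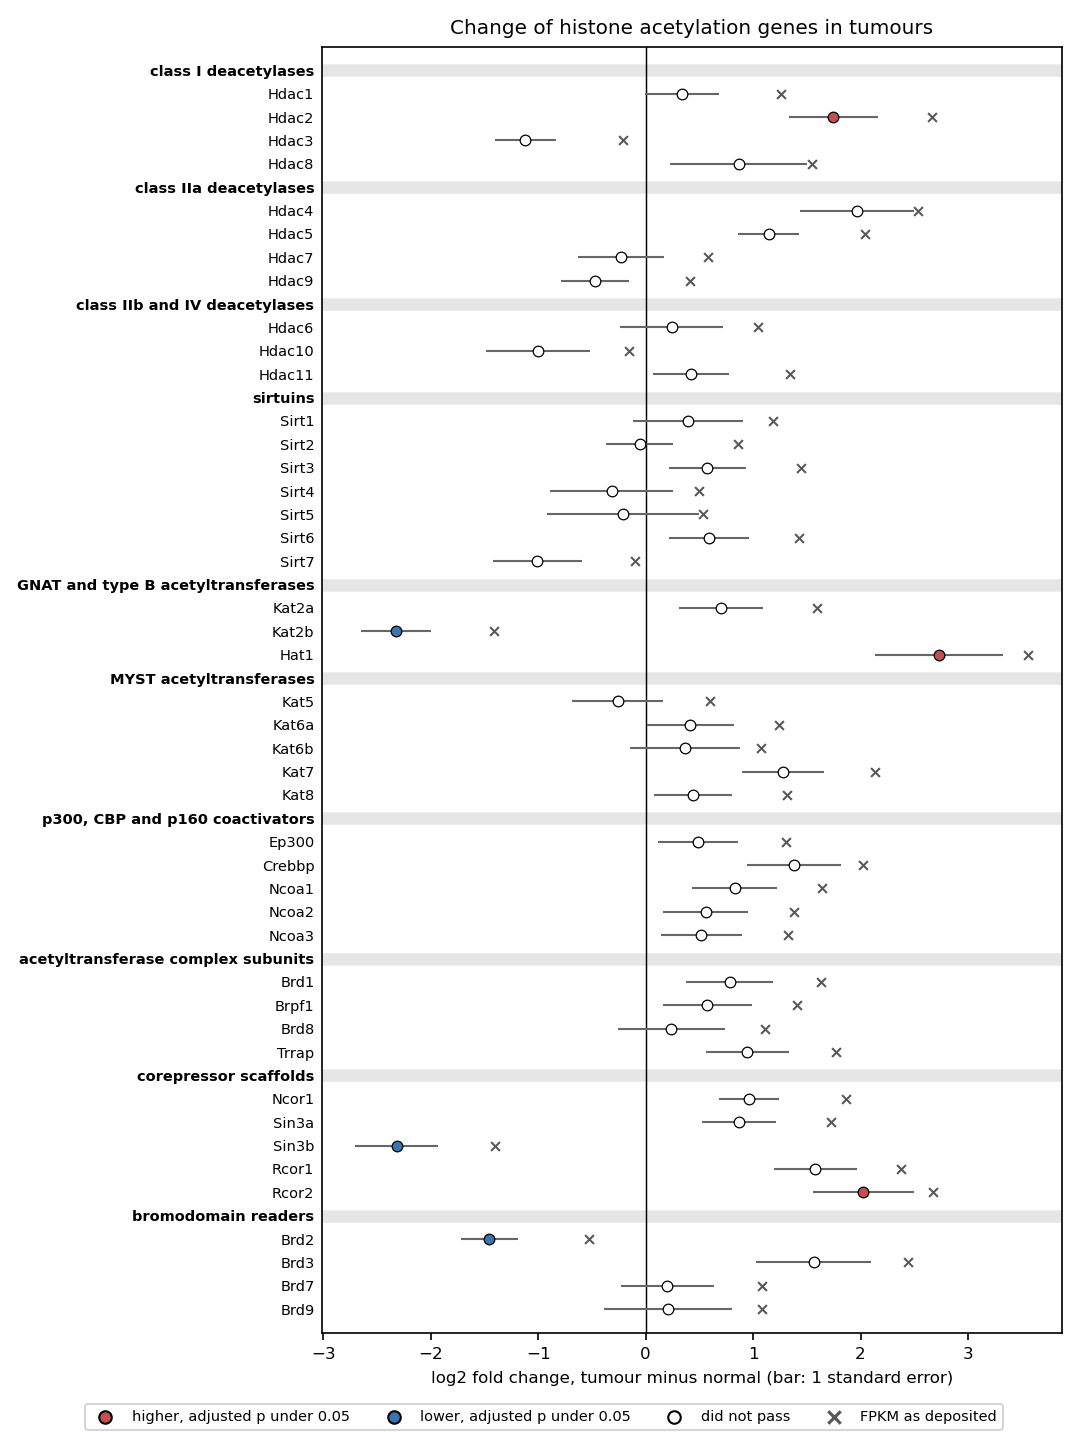
Log2 fold change, tumour minus normal, of the 44 genes on the scaled values (circles, with bars of 1 standard error; filled where the adjusted p was under 0.05) and on the deposited scale (crosses). Crosses lie to the right of circles throughout. Kat2b and Sin3b have the lowest values at -2.32, and Hat1 the highest at 2.73.

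Ratios between paralogues within a library cancel the scaling between libraries. Of 12 paralogue pairs, 11 could be computed in all 4 libraries, since Hdac4 was listed at 0 in a normal prostate. In 6 of the 11 the tumours and normal prostates did not overlap. For single genes both tumours lay above both normal prostates in 37.7% of all genes tested and below in 33.3%. No such share was computed over other gene pairs, so the count of 6 is a description only. The FPKM ratio of Hdac2 to Hdac1 was 0.561 and 0.627 in the normal prostates, against 1.78 and 1.48 in the tumours. Kat2a to Kat2b was 0.269 and 0.165 against 2.87 and 1.19. Sin3a to Sin3b was 0.0853 and 0.0763 against 1.21 and 0.540, and Brd3 to Brd2 was 0.0819 and 0.0528 against 0.924 and 0.355. In these 4 pairs the member that was scarcer in the normal prostates gained on the other. Each of the 4 holds a gene called above (Hdac2, Kat2b, Sin3b or Brd2), so the ratios in part repeat those calls. The mean log2 ratio changed by 1.45, 3.13, 3.33 and 3.12. From implied fragments the changes were 1.47, 2.92, 3.04 and 2.80. Fragments are not corrected for length, so their ratios are not read against equal levels. Hdac6 to Hdac10 was 0.301 and 0.542 against 1.08 and 1.03. Ep300 to Crebbp, written with the more abundant gene first, was the only ratio that was lower in both tumours, at 8.72 and 3.37 against 1.88 and 1.82. Hdac6 and Crebbp were thus also the scarcer members in the normal prostates and gained on their paralogues. The scarcer member was read from the same normal values that enter each change, so a gain by it is in part built in. Hdac9 to Hdac7, Kat6a to Kat6b, Rcor2 to Rcor1, Brd1 to Brpf1 and Brd7 to Brd9 overlapped between groups. These ratios carry no test.

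**Figure D4:**
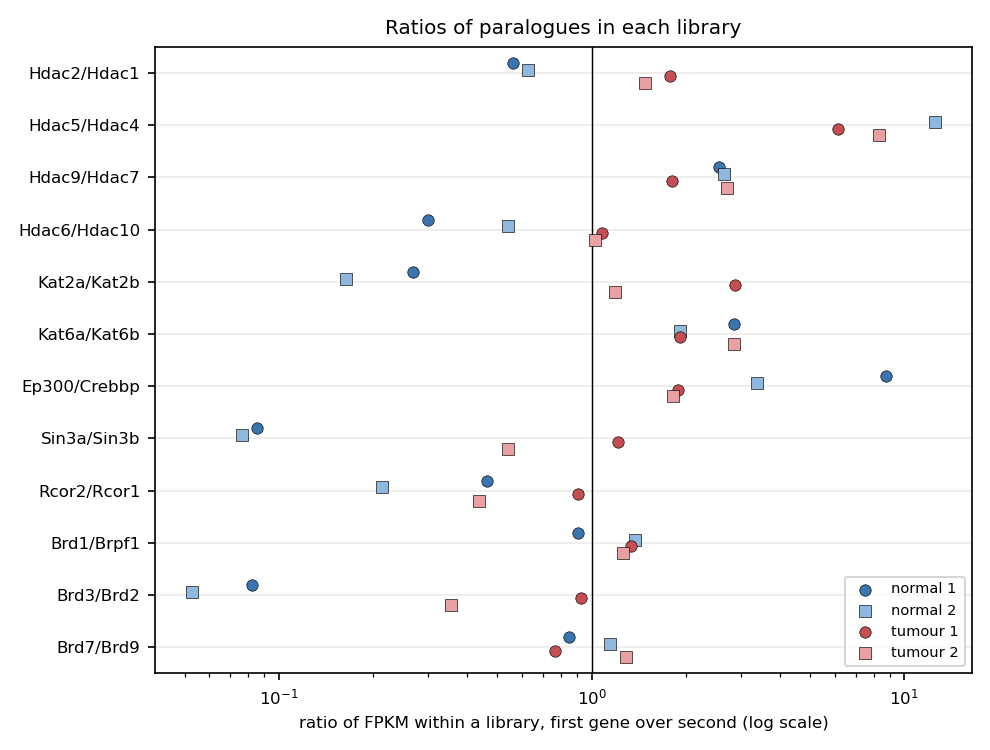
FPKM ratio of 12 paralogue pairs on a log axis, with a point for each library, except that Hdac5 to Hdac4 has none for normal 1. The vertical line marks equal levels. For Sin3a to Sin3b both normal prostates lie under 0.0853 or at it, and the tumours at 1.21 and 0.540.

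The tumours differed more from each other than the normal prostates did. The median absolute log2 difference between libraries of a group was 0.47 for the tumours and 0.23 for the normal prostates over the 44 genes, against 0.64 and 0.29 over all genes tested. Tumour 1 exceeded tumour 2 for 34 of the 44 genes (77.3%), where 52.4% of all genes tested did. The median log2 difference from the normal mean was 0.71 in tumour 1 and 0.30 in tumour 2. Sirt5, Brd9, Brd3, Sirt4 and Sirt1 stood highest in tumour 1 relative to tumour 2, by 1.83, 1.57, 1.36, 1.24 and 1.07 on the log2 scale. Sirt7, Sin3b and Hdac11 stood lower in tumour 1 by -0.97, -0.87 and -0.72. The summed proliferation markers were also higher in tumour 1. Every other marker sum was higher in tumour 2. These were the luminal, basal, neuroendocrine, smooth muscle, fibroblast, endothelial, macrophage and lymphocyte sums. The part of these markers in the tumours' differences was not tested.

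Partner genes were counted in 7 lists of 97 further genes of acetylation complexes, other readers and cofactor supply, chosen by function. Of these, 8 rose, 3 fell and 86 did not pass. The 11.3% called is below the 18.1% of all genes tested, and their median log2 fold change was 0.45, against 0.07. Sap30, Nmnat2, Brdt and Brwd3, 4 in all, passed the filter on low values through their tumour values alone, so a call for them follows in part from the filter. Of 11 NuRD subunits, Mta3 fell (39.4 and 48.0 against 13.0 and 17.2, adjusted p = 0.0412). Of 11 SIN3 subunits, Sap30 rose, listed at 0 in both normal prostates but at 17.3 and 7.43 in tumours 1 and 2 (adjusted p = 0.0234). Of 13 SAGA and ATAC subunits, which work with Kat2a or Kat2b, Usp22 rose (15.9 and 14.3 against 53.7 and 36.6, adjusted p = 0.0438) and Yeats2 fell (34.6 and 25.0 against 6.996 and 5.45, adjusted p = 0.0302). Usp22 is the SAGA deubiquitinase and Yeats2 is an ATAC subunit that reads acylated histone H3.

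Of 22 NuA4 and MYST subunits, the paired ATPases Ruvbl1 and Ruvbl2 rose. Ruvbl1 lay at 7.05 and 5.64 against 40.7 and 25.4 (adjusted p = 0.0313), and Ruvbl2 at 11.4 and 14.5 against 68.8 and 36.0 (adjusted p = 0.0446). Of 24 other bromodomain and YEATS readers, Atad2 rose from 1.89 and 0.929 to 53.4 and 27.6 (log2 fold change 4.06, adjusted p = 0.0208), and Phip from 3.72 and 3.02 to 23.2 and 12.7 (adjusted p = 0.0431). Atad2 is a bromodomain ATPase whose human counterpart is an E2F target. Of 8 genes of acetyl-CoA and NAD supply, Nampt, the rate-limiting enzyme of NAD salvage, rose from 5.36 and 6.38 to 21.0 and 27.9 (adjusted p = 0.0340). Nmnat2 also rose, listed at 0 and at 0.146 in the normal prostates and at 3.63 and 4.84 in tumours 1 and 2 (adjusted p = 0.0273), and the citrate carrier Slc25a1 fell from 29.0 and 30.3 to 9.52 and 11.9 (adjusted p = 0.0445). None of the 8 NCoR and CoREST partners passed in limma on the scaled values or with voom. At an unadjusted p under 0.05, 4 and 3 of the 8 were higher in these fits, where 21.5% and 19.5% of all genes tested were. On the deposited scale 4 of the 8 passed, all higher, where 28.0% of all genes tested were called higher.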

How the data were processed

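RNA of 2 normal prostates and 2 TRAMP tumours was measured by sequencing. The authors deposited a Cufflinks table for each library with FPKM values and the bounds of their intervals. Trim Galore, TopHat2 2.0.8, Cufflinks 2.1.1 and Cuffdiff 2.1.1 are named per the submitters' processing notes. The annotation and the strand setting were not given in the sources used here. All 44 genes lay at the position of the same gene in GENCODE M21 (GRCm38), and 14 share exon sequence with a gene on the opposite strand, whose reads cannot be told apart without strand.

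FPKM were summed by gene name, after 27 rows named as dates were left out. Each library was divided by a median-of-ratios factor over 11469 genes listed above 0 throughout (0.793 and 0.689 for normal prostates, 1.34 and 1.50 for tumours). A gene was tested if its FPKM as deposited reached 1 in at least 2 of 4 libraries, on log2(scaled FPKM + 1), so fold changes of low genes are understated. The test was limma 3.58.1 in R 4.3.3 with an intensity trend, two-sided, adjusted by Benjamini-Hochberg over 13162 genes. There were 2 residual degrees of freedom, and 2.85 came from the prior. The code was also run on simulated data in which all 4 libraries had the spread of the normal pair. That run does not cover the wider spread between the tumours. An exact permutation test of 2 against 2 cannot go below 0.333. Fragments were implied from interval widths, taken as 2 Poisson standard deviations on each side, and 71.0% to 72.5% of low values lay within 0.1 of a whole number, where chance gives 20%. They cover counting error only, and are too low where isoform assignment widens an interval. A value of 0 may be a failed estimate.

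All 44 genes are named. Full statistics went to genes past the threshold and to the largest difference of each role class, with others added after their values were seen. Partner genes past the threshold are named, up to 5 per list and direction. An item of the marker lists is not reported here. Members, lists and rules were chosen with earlier results of these data known. Alternatives were 3 other scalings, a pseudocount of 0.1, no filter, no trend, voom on implied fragments and leaving out each library, and, added after seeing the data, paralogue ratios of implied fragments.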

Additional observations from a re-analysis of the deposited data

How the results depend on the processing

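Without scaling (FPKM as deposited), 3681 genes were called higher (28.0%) and 427 lower (3.24%). Among the 44 genes the counts were 18 and 1, and among the 97 partner genes 40 and 0. The median of the 44 was then 1.32, and tumours lay above normal prostates for 36 genes and below for 3. With libraries set to equal FPKM sums, leaving out genes above 1%, 2537 genes were higher and 554 lower, with 12 of the 44 higher, 25 partner genes higher and 1 lower, a median of 1.06, and tumours below for 4. Quantile normalization called 1 of the 44 lower, a pseudocount of 0.1 called 1 higher, and voom called 1 higher. Without the trend 1 partner gene was lower. Without a filter, 245 genes were higher and 249 lower, with 0 and 1 of the 44 (limma, 11 and 4 at an unadjusted p under 0.05) and 1 and 0 partner genes, and more genes were adjusted for.

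Signs reversed as follows. On the deposited scale the values were 0.58 for Hdac7, 0.41 for Hdac9, 0.86 for Sirt2, 0.50 for Sirt4, 0.53 for Sirt5 and 0.60 for Kat5. With the sum scaling they were 0.34, 0.15, 0.58, 0.25, 0.31 and 0.34 for Hdac7, Hdac9, Sirt2, Sirt4, Sirt5 and Kat5. Quantile normalization gave 0.19 for Sirt2 and -0.0398 for Kat6b, and voom gave 0.0242 for Sirt2. None of these genes had passed.

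Leaving out each library in turn, with the same genes and factors and the lone sample assumed to vary like the other group, gave 0 to 1852 genes higher and 0 to 1923 lower. For the 44 the counts were 0 to 3 in either direction, for partner genes 0 to 12 higher and 0 to 4 lower, the median 0.30 to 0.71, and tumours lay below for 7 to 16. Signs reversed within -0.0065 to 0.68 for Hdac1, -0.22 to 0.71 for Hdac6, -0.15 to 0.93 for Sirt1, -0.25 to 0.15 for Sirt2, -0.94 to 0.30 for Sirt4, -1.13 to 0.71 for Sirt5, -0.64 to 0.11 for Kat5, -0.0929 to 0.83 for Kat6b, -0.22 to 0.70 for Brd8, -0.23 to 0.64 for Brd7 and -0.58 to 0.99 for Brd9. The cause of these changes was not tested. The labels give no replicate numbers, and the numbers 1 and 2 used here only name the libraries of a group. No paired analysis was possible because nothing in the labels ties a tumour to a normal prostate. With 2 libraries a group and few fragments, low genes such as Hdac4, Hdac8 and Rcor2 have the least precise values.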
